A study of Mus musculus with 12 samples.

Results

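The microRNA miR-122 was examined as its 2 mature arms, mmu-miR-122-5p and mmu-miR-122-3p, which are 2 of the 1929 mature miRNA names in the deposited count table. The arms were picked by name, with no filter on measured values, but with earlier results of these data known. Small RNA was sequenced from liver in 12 libraries of C57BL/6 mice. The labels number the libraries 1 to 6 in each group without saying that each is a different animal. The p-values therefore set group differences against the spread between these libraries, which are called mice below for short. All received repeated intraperitoneal injections of carbon tetrachloride (CCl4), a toxin that injures hepatocytes and leads to hepatic fibrosis. In addition 6 mice were given double distilled water by the intragastric route once a day (the water group, labelled Control), and 6 were given PZH, the traditional medicine Pien Tze Huang, by the same route once a day. No uninjured mice were analysed here. The sources used here give neither the dose of PZH nor the age and sex of the animals.

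MicroRNAs are cut as short duplexes from a hairpin precursor, and 1 strand of the duplex is usually kept by Argonaute as the guide while the other is mostly lost. The guide pairs through its seed, the bases near its 5′ end, with messenger RNAs and represses them. The guide of the miR-122 hairpin is miR-122-5p. It is the signature miRNA of the hepatocyte, is known for its part in cholesterol and lipid metabolism and as a host factor of hepatitis C virus, and its loss in mice is known to lead to steatosis, inflammation and fibrosis. The partner arm, miR-122-3p, is the passenger strand.

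In GRCm38 the miR-122 hairpin lies on chromosome 18 from 65248861 to 65248926 on the plus strand. GENCODE M21 places it inside exon 2 (65245359 to 65252621) of the long non-coding RNA gene AC157910.3. The nearest protein-coding genes are Nedd4l, which ends 31033 bases before it, and Alpk2, which begins 16603 bases after it. A second hairpin, miR-122b, is listed by RefSeq from 65248863 to 65248921, within the same interval. As background, miR-122b is annotated on the strand opposite to miR-122, so that miR-122b-3p covers the bases of miR-122-5p and miR-122b-5p those of miR-122-3p. The table used here gives no strand for miR-122b.

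Total counts lay between 4961913 and 20211784 per library. The least deeply sequenced library held 485511 counts of miR-122-5p and 3326 of miR-122-3p, for which counting error alone is 0.144% and 1.73%. The spread between mice was far larger, with coefficients of variation of 7.68% (water) and 12.9% (PZH) for miR-122-5p and of 8.79% and 11.3% for miR-122-3p (n = 6 each). Levels below are CPM, counts scaled to library size after TMM normalization.

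The guide arm was the most abundant of the hepatocyte miRNAs in both groups, and its groups did not differ beyond the spread between mice. In every one of the 12 libraries miR-122-5p ranked 2nd among all miRNAs, below miR-21a-5p, a miRNA known to be induced in injured liver. By mean level over the 12 libraries it was followed by the mesenchymal miR-143-3p and the hepatocyte miR-192-5p. The rest of the 10 most abundant were miR-22-3p, miR-26a-5p, miR-30a-5p, miR-99a-5p, miR-148a-3p and miR-194-5p, of which miR-30a-5p alone was called between the groups (log2 fold change -0.31, edgeR adjusted p = 0.00769). With water it stood at 95293 CPM in the lowest mouse, at a median of 103254 and at 116004 in the highest. With PZH the lowest, median and highest values were 90316, 105510 and 126884 CPM. The range of the PZH mice enclosed that of the water mice on both sides, so the groups overlapped fully. PZH replicates 4 and 6 were higher than every water mouse, and PZH replicate 3 was lower than every water mouse. The means were 104137 ± 8000 and 107905 ± 13911 CPM (SD, n = 6), and the log2 fold change of PZH against water was 0.05 (SE 0.08, edgeR adjusted p = 0.786).

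The 95% interval of that change ran from -0.13 to 0.23 on the log2 scale, that is from 0.916-fold to 1.17-fold. A two-sided exact permutation test of log2 CPM over all assignments of libraries to groups gave p = 0.613. Of 607 tested miRNAs 129 were called between the groups (21.3%, edgeR adjusted p under 0.05), and neither miR-122 arm was among them. In absolute log2 fold change 522 of the 607 miRNAs exceeded miR-122-5p, and the median over all 607 was 0.22. In bulk tissue a change in the number of hepatocytes and a change in miRNA per hepatocyte cannot be told apart.

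**Figure D1:**
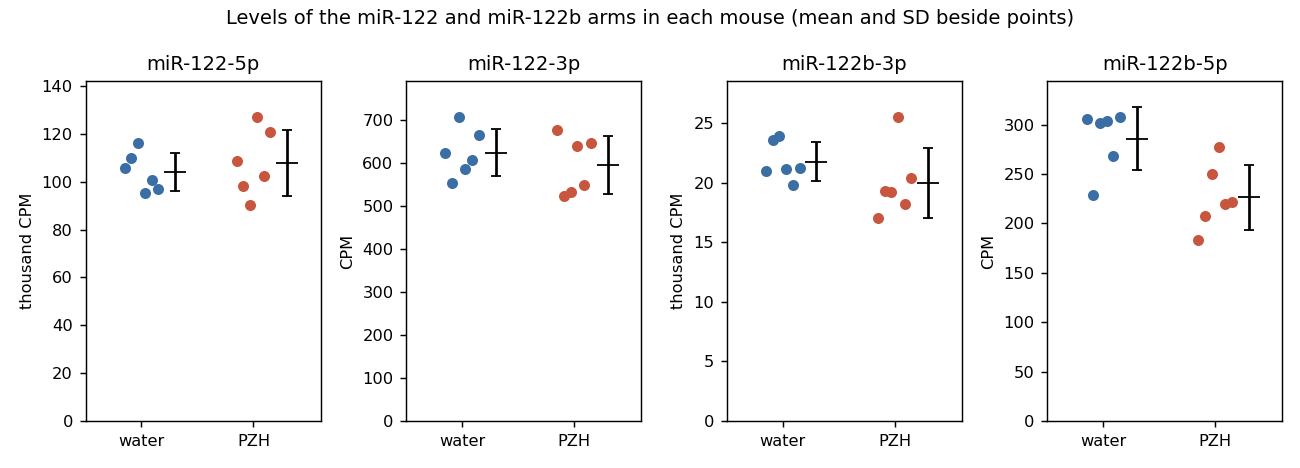
Level of miR-122-5p, miR-122-3p, miR-122b-3p and miR-122b-5p in each mouse of the water and PZH groups, in CPM (miR-122-5p and miR-122b-3p in units of 1000 CPM) on axes that start at 0, with the group mean and SD (n = 6) beside the points. The groups overlap in all 4 panels, and the clearest offset is in miR-122b-5p (water mean 286 ± 31.9, PZH mean 227 ± 33.1 CPM).

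Expressed as a share of all counts, miR-122-5p held 10.2% ± 0.686 with water and 10.9% ± 1.15 with PZH (SD, n = 6; two-sided exact permutation p = 0.24). The lowest share was 9.18% in both groups, and the highest was 11.2% with water and 12.4% with PZH. The spread between mice was higher in value with PZH and did not differ by test. The mean absolute deviation of log2 CPM from the group median was 0.0896 with water and 0.147 with PZH (two-sided exact permutation p = 0.225, n = 6). That difference of 0.057 was 0.0242 without PZH replicate 4, 0.0328 without PZH replicate 3 and 0.0379 without PZH replicate 6. Among the 75 miRNAs that averaged 1000 CPM or more, 36 varied less within groups than miR-122-5p, whose pooled coefficient of variation of 10.6% lay next to their median of 10.7%.

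The passenger arm was far scarcer and likewise gave no call. In the water mice miR-122-3p ran from 554 CPM through a median of 615 to 706 CPM, and in the PZH mice from 522 through 594 to 677 CPM. The PZH range was shifted slightly downward and overlapped most of the water range. Means were 623 ± 54.8 and 595 ± 67.4 CPM (SD, n = 6), with a log2 fold change of -0.07 (SE 0.09, 95% interval -0.26 to 0.12, edgeR adjusted p = 0.707; two-sided exact permutation p = 0.4). Its rank among all miRNAs lay between 85 and 98 in the 12 libraries. With only miRNAs of at least 10 CPM in 6 libraries tested, the sign of its change turned (log2 fold change 0.018, edgeR adjusted p = 0.898), and without PZH replicate 4 the sign of miR-122-5p turned (-0.0081, edgeR adjusted p = 0.958).

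**Figure D2:**
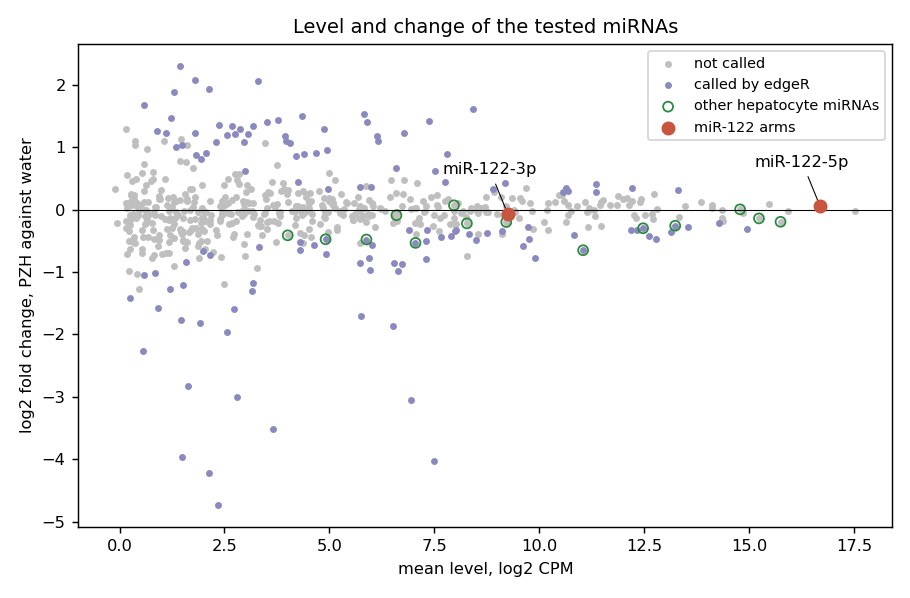
Log2 fold change of PZH against water plotted against mean level (log2 CPM) for the 607 tested miRNAs, with calls by edgeR coloured and the miR-122 arms and the 14 other miRNAs listed for hepatocytes marked. The arms lie at 0.05 and -0.07, close to the zero line, while most of the listed miRNAs lie below it. The list includes both arms of miR-455, which is no hepatocyte marker.

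The balance between the arms was strongly on the side of the guide in each mouse. Per count of miR-122-3p the water mice had 168 ± 17.2 counts of miR-122-5p and the PZH mice 182 ± 13.8 (SD, n = 6). The lowest ratio was 146 (water replicate 6), and the highest were 199 (water replicate 2) and 198 (PZH replicate 4). The passenger arm thus made up between 0.501% and 0.68% of the counts of the hairpin. On the log2 scale the ratio was 7.38 ± 0.14 with water and 7.50 ± 0.11 with PZH, a difference of 0.12 (SE 0.10, 95% interval -0.10 to 0.33, limma adjusted p = 0.494; two-sided exact permutation p = 0.156). Arms of a hairpin differ in how well they are ligated during library preparation, so the ratio is not a molar one, although it can be compared between mice.

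In a comparison of 137 hairpins with both arms at a mean of at least 20 counts, 11 changed their arm ratio (8.03%, limma adjusted p under 0.05), and miR-122 was not one of them. That count was unstable, at 3 without water replicate 1 or 4, 4 without water replicate 3 or PZH replicate 6, 5 without water replicate 5 or PZH replicate 1 or 5, 6 with the replicate block and 19 among hairpins with a mean of at least 100 counts per arm. A larger mean log2 ratio of 5p to 3p was seen for 13 hairpins, and 91 had a larger absolute change. The hairpins with the ratio closest to that of miR-122 were miR-486b (mean log2 ratio 7.64), miR-31 (7.15) and let-7i (7.83), and their differences of 0.32, 0.14 and 0.38 were not called either (limma adjusted p = 0.424, 0.521 and 0.253).

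The arm ratio was higher in value in more deeply sequenced libraries, but the relation was not called after adjustment. Across the 12 libraries the log2 ratio of the arms and log2 total counts had Pearson's r = 0.581 (permutation p = 0.0464, adjusted over 7 relations 0.194) and Spearman's rho = 0.545 (permutation p = 0.0702, adjusted 0.292). Without water replicates 2 and 6, the libraries with the highest and the lowest totals, r was 0.0574, so the pooled relation did not hold without those libraries. Within the groups r was 0.935 (water, which holds both) and 0.555 (PZH, which holds neither), over 6 mice each, and after centring on group means it was 0.812. The part of depth in the group difference was not tested.

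**Figure D3:**
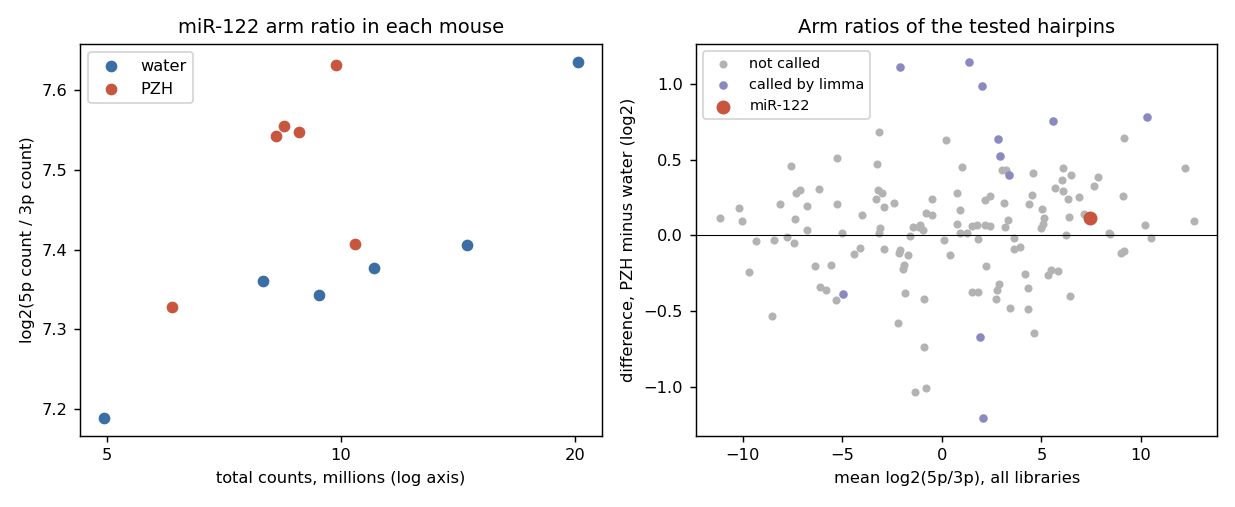
Left, log2 ratio of miR-122-5p to miR-122-3p counts against total counts (in M, log axis) in each mouse. Right, difference in log2 arm ratio (PZH minus water) against mean log2 arm ratio for 137 hairpins, with miR-122 at 7.44 and 0.12 among hairpins that were not called.

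The arms varied together between mice to a moderate degree. Over the 12 libraries log2 CPM of miR-122-5p and miR-122-3p had r = 0.557 (permutation p = 0.0617, adjusted over 7 relations 0.194) and rho = 0.524 (permutation p = 0.0834, adjusted 0.292). Within groups r was 0.26 for water and 0.802 for PZH, with 6 mice each. Without PZH replicates 4 and 6, the mice farthest from the median of miR-122-5p, r was 0.552. After centring on the group means it was 0.628, with an unadjusted permutation p of 0.0308.

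Counts assigned to the overlapping hairpin miR-122b bear on how the miR-122 values are read. The mean level of miR-122b-3p was 21788 ± 1637 CPM in water mice and 19944 ± 2939 CPM in PZH mice (SD, n = 6), which placed this name between rank 10 and rank 13 in every library. In PZH mice its lowest, median and highest levels were 17066, 19252 and 25490 CPM, against 19784, 21207 and 23956 CPM in water mice. Its log2 fold change was -0.13 (SE 0.09, edgeR adjusted p = 0.382), a value that was called only without PZH replicate 4 among the 20 alternatives run (-0.22, edgeR adjusted p = 0.0306, against values of up to 0.743 in the others). PZH replicate 4 was the mouse with the highest level of both miR-122-5p and miR-122b-3p. The other arm, miR-122b-5p, was at 229, 303 and 307 CPM in the lowest, median and highest water mouse and at 183, 221 and 278 CPM in the PZH mice. It fell by 0.33 on the log2 scale (SE 0.11, edgeR adjusted p = 0.0424). Of 20 alternatives 14 ended that call, including scaling by RLE or by totals and, in 9 cases, a single library left out (edgeR adjusted p from 0.0534 to 0.176 in these 14, and from 0.0126 over all 20).

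The library kit ligates adapters in a way that keeps the strand of each RNA, but no source used here says whether the counting used it, so reads of the opposite strands cannot be told apart. Of the summed counts of miR-122-5p and miR-122b-3p, the latter held 17.3% ± 0.739 in water mice and 15.6% ± 1.51 in PZH mice (SD, n = 6). The lowest share was 13.6% (PZH replicate 1) and the highest 18.2% (water replicate 4). The two-sided exact permutation p of 0.039 became 0.13 when adjusted over the 9 pairs of opposite-strand names examined, and the unadjusted value rose above the threshold when any 1 of 7 libraries was left out. For miR-122-3p and miR-122b-5p, the latter held 31.4% ± 1.85 and 27.7% ± 3.78 (SD, n = 6; exact permutation p = 0.0433, adjusted 0.13). These tests were chosen after the values had been seen.

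With the names summed before the fit, the result for the guide barely moved. The combined row of miR-122-5p and miR-122b-3p had a log2 fold change of 0.03 (SE 0.08, 95% interval -0.14 to 0.20, edgeR adjusted p = 0.884), and its share of all counts was 12.4% ± 0.766 in water mice and 12.9% ± 1.28 in PZH mice (SD, n = 6; two-sided exact permutation p = 0.387). The combined row of miR-122-3p and miR-122b-5p stood at -0.14 (SE 0.08, 95% interval -0.31 to 0.04, edgeR adjusted p = 0.271).

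Other pairs of mature names that lie on opposite strands of the same bases also share counts in this table. RefSeq sequences (GRCm38.p6) gave 31 such pairs with an overlap of at least 15 bases and both names in the table, 7 of them with a mean of at least 1000 counts. The pairs below are shown because in each the second name is, over most of its length, the reverse complement of the first, the arrangement annotated for miR-122b and miR-122. Sequences run 5′ to 3′, and capitals mark the stretch of each that is the exact reverse complement of its partner.
miR-24-3p: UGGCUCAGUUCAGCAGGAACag
miR-3074-5p: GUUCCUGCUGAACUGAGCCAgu
miR-126a-3p: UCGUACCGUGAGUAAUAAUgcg
miR-126b-5p: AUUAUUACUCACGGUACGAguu
miR-203-3p: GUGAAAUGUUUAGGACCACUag
miR-203b-5p: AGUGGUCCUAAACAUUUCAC
The first pair lies at chr13:63301251-63301272 (plus) and chr13:63301249-63301270 (minus), 1 of 2 loci of these names, the second at chr2:26591402-26591423 (plus) and chr2:26591399-26591420 (minus), and the third at chr12:112130927-112130948 (plus) and chr12:112130927-112130946 (minus). The shared stretch is 20 bases for miR-24-3p and miR-3074-5p, 19 for the miR-126 pair and 20 for the miR-203 pair. In the first pair the name miR-3074-5p held more of the summed counts than miR-24-3p, at 67.4% ± 1.49 in water mice and 64.8% ± 3.81 in PZH mice (SD, n = 6). The share of miR-126b-5p was 3.97% ± 0.229 and 3.64% ± 0.565, and that of miR-203b-5p 8.26% ± 0.316 and 7.81% ± 1.24. The remaining 4 pairs had second-name shares between 0.156% and 4.08% in any library. At 13.6% to 18.2% the share of miR-122b-3p lay within this range of pairs, above 6 of the 7 and below that of miR-3074-5p. Whether the counts under the second names come from RNA of the opposite strand was not tested.

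The level of miR-122-5p was next set against 7 other miRNAs counted in the same mouse, which removes the scaling of libraries. Among these references, miR-192-5p, miR-194-5p and miR-148a-3p are abundant in hepatocytes, miR-21a-5p responds to injury, miR-143-3p belongs to mesenchymal cells, miR-126a-3p to endothelium and miR-223-3p to myeloid cells. RefSeq held the mature sequences of 6 of them. They are printed here with the seed, bases 2 to 8, in capitals, because the seed sets the messages each can repress.
miR-21a-5p: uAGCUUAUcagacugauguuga
miR-192-5p: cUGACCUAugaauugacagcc
miR-194-5p: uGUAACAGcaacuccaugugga
miR-148a-3p: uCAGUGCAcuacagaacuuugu
miR-126a-3p: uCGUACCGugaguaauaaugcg
miR-223-3p: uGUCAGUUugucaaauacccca
No 2 of these 6 share a seed. Within the table miR-192-5p shares its seed with miR-215-5p, miR-148a-3p with miR-148b-3p and miR-152-3p, and miR-21a-5p with miR-21c, while miR-194-5p, miR-126a-3p and miR-223-3p shared theirs with no other name that had a RefSeq sequence.

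Relative to 4 of the 7 references, miR-122-5p was higher with PZH. Counts of miR-122-5p per count of miR-194-5p went from 2.57 ± 0.145 to 2.94 ± 0.246 (SD, n = 6), a log2 difference of 0.19, with 5 of 6 PZH mice above every water mouse (exact permutation p = 0.0152, adjusted over 7 ratios 0.0417). In water mice this ratio ran from 2.34 to 2.73 and in PZH mice from 2.57 to 3.21, with PZH replicate 3 the only one inside the water range. For miR-192-5p the ratio went from 1.78 ± 0.168 to 2.12 ± 0.222 (log2 difference 0.25, 4 of 6 PZH mice above every water mouse, exact permutation p = 0.0238, adjusted 0.0417). That PZH replicate 3 was low recurs here, at 1.79 against 1.89 or more in the other PZH mice.

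Against the endothelial miR-126a-3p the ratio rose from 10.2 ± 1.28 to 13.6 ± 1.74 (SD, n = 6; log2 difference 0.41, 5 of 6 PZH mice above every water mouse, exact permutation p = 0.00649, adjusted 0.0417). Against the myeloid miR-223-3p it rose from 112 ± 20.8 to 181 ± 54.5 (log2 difference 0.65, 4 of 6 PZH mice above every water mouse, exact permutation p = 0.0195, adjusted 0.0417). These references were themselves lower with PZH, miR-126a-3p by a log2 fold change of -0.36 and miR-223-3p by -0.58 (edgeR adjusted p = 0.00281 and 0.00583), and they were included with those results known. The corresponding values of miR-192-5p and miR-194-5p were -0.20 and -0.14 (edgeR adjusted p = 0.169 and 0.185). The higher ratios to miR-126a-3p and miR-223-3p thus largely restate falls already known. In all 4 called ratios the change of the reference was larger in size than that of miR-122-5p itself (log2 fold change 0.05, edgeR adjusted p = 0.786). The ratios therefore do not show a rise of miR-122-5p. All 4 called ratios had the same adjusted exact permutation p (0.0417). The Benjamini-Hochberg adjustment took it from the largest unadjusted value among the 4, that of miR-192-5p (exact permutation p = 0.0238). That adjustment uses the rank of each p-value. The calls against miR-192-5p and miR-194-5p therefore depended on the low p-values of miR-126a-3p and miR-223-3p.

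The ratios to the remaining 3 references gave no call. They went from 0.548 ± 0.0545 to 0.573 ± 0.0675 for miR-21a-5p, from 3.69 ± 0.229 to 3.81 ± 0.324 for miR-148a-3p and from 1.69 ± 0.272 to 1.84 ± 0.556 for miR-143-3p (SD, n = 6; exact permutation p adjusted over 7 ratios 0.591, 0.591 and 0.716). The 4 calls were close to the threshold. All 4 ended when water replicate 1, 4, 5 or 6 or PZH replicate 1, 2, 4 or 5 was left out, with adjusted exact permutation p between 0.0556 and 0.0795 in those cases. The call against miR-223-3p also ended without PZH replicate 6 (adjusted exact permutation p = 0.053). The direction was kept each time.

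**Figure D4:**
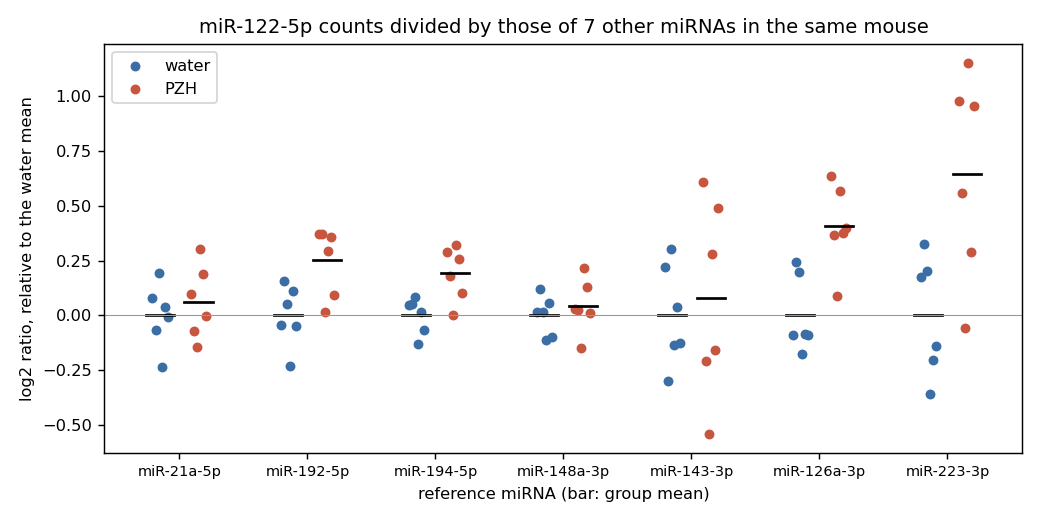
Counts of miR-122-5p divided by those of each of 7 reference miRNAs in the same mouse, as log2 relative to the mean of the water group, with group means as bars. The PZH means lie highest for miR-192-5p, miR-194-5p, miR-126a-3p and miR-223-3p (0.25, 0.19, 0.41 and 0.65), where 4 or 5 of 6 PZH mice exceed every water mouse. The groups overlap for all 7 references, and PZH replicate 3 lies inside the water range for those 4.

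Other miRNAs listed for hepatocytes, most of which are also expressed elsewhere, fell in several cases and rose in none by the same test, while neither arm of miR-122 was called. Of 14 listed hepatocyte miRNAs other than miR-122, all tested, 6 fell and 0 rose (edgeR adjusted p under 0.05), where 11.4% of all tested miRNAs fell and 9.88% rose. Their median log2 fold change was -0.24, against -0.03 over all 607 tested miRNAs, and 12 of the 14 values were negative. Those that fell were miR-802-5p (-0.65), a liver miRNA linked to glucose metabolism, the miR-101 relatives miR-101b-3p (-0.26) and miR-101a-3p (-0.30), and miR-193a-3p (-0.48). Of the miR-455 hairpin, the 3p arm (miR-455-3p) fell by 0.53 and the 5p arm (miR-455-5p) by 0.48. For each arm every PZH mouse lay below every water mouse. Such separation was not particular to them, as miR-378c, miR-203-3p, miR-503-5p and miR-29a-3p outside the list showed it too. The share of all tested miRNAs that separated fully is not given here. The miR-455 hairpin lies within the collagen gene Col27a1 (GENCODE M21) and is no hepatocyte marker, and its arms are not independent of each other. Without them, a choice made after the values were seen, 4 of 12 fell and the median was -0.21. The other 8 were not called, at -0.20 for miR-192-5p and miR-148a-5p, -0.09 for miR-192-3p, -0.14 for miR-194-5p, -0.41 for miR-215-5p (edgeR adjusted p = 0.0771), -0.22 for miR-802-3p, 0.07 for miR-365-3p and 0.0037 for miR-148a-3p. The list was drawn up with earlier results of these data known, so the share of it that fell is a description only. No test compared miR-122 with the list. Without a filter on low counts 2 of the 14 were called.

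**Figure D5:**
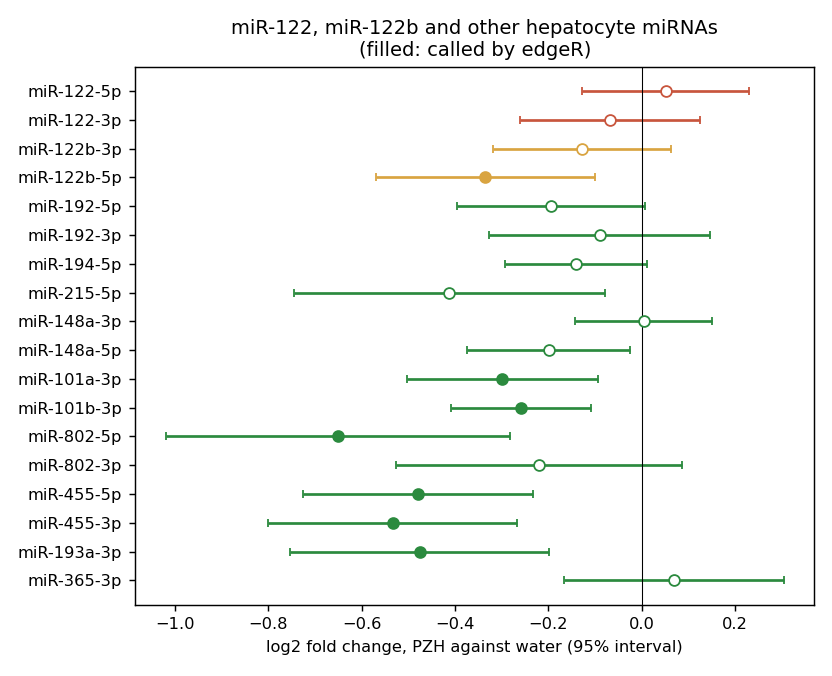
Log2 fold change of PZH against water with its 95% interval for the miR-122 arms, the miR-122b arms and the 14 members of the hepatocyte list, filled where edgeR called the change. The intervals of both miR-122 arms span 0, and the filled points lie between -0.65 and -0.26. They are miR-122b-5p and 6 members of the hepatocyte list, among them both arms of miR-455, which is no hepatocyte marker.

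In lipid metabolism, the process for which miR-122 is best known, 3 of 10 tested miRNAs were called, a share near the 21.3% called among all tested miRNAs. The Dlk1-Dio3 miRNA miR-370-3p, which has been reported to raise miR-122 in hepatocytes, stood at 3.75 ± 1.75 CPM in water mice and at 15.9 ± 4.86 CPM in PZH mice (SD, n = 6), a rise of 2.06 on the log2 scale (edgeR adjusted p = 0.000133), with every PZH mouse above every water mouse. Such a rise was not particular to it, since miR-543-3p (2.30) and miR-377-3p (1.54), outside this list, also rose with full separation of the groups. The other calls in the list were falls of miR-378a-3p (-0.33) and miR-223-3p (-0.58). Not called were miR-33-5p (-0.31), which represses cholesterol export, miR-34a-5p (0.14), miR-27a-3p (0.01), miR-27b-3p (-0.01), miR-30c-5p (-0.15), miR-103-3p (0.15) and miR-107-3p (-0.03). The median log2 fold change over all 10 was -0.02.

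Markers of other cells of the liver held fewer counts than the hepatocyte miRNAs. The 14 members of the hepatocyte list, which leaves out miR-122 and includes both arms of miR-455, summed to 136838 to 158028 CPM in water mice and to 118017 to 159715 CPM in PZH mice. The counts of called members below stand beside 11.4% of all tested miRNAs lower and 9.88% higher, and with lists of 2 to 8 members they show nothing particular to a list. As shares of all counts, averaged over the 12 libraries, the 8 mesenchymal miRNAs held 7.49%, the 8 leukocyte miRNAs 1.43%, the 2 endothelial arms 1.38%, the 4 erythroid names found 0.462% and the 5 epithelial and biliary miRNAs 0.113%. Summed levels of the mesenchymal list ran from 64877 to 94286 CPM with water and from 54198 to 94660 CPM with PZH, and 0 of its 8 members were called (1 at an unadjusted p under 0.05, miR-145a-5p at 0.19). The leukocyte sum ran from 14094 to 17830 CPM and from 11135 to 16895 CPM, with 2 of 8 lower (miR-223-3p and miR-146a-5p) and 1 higher (miR-342-3p). The endothelial sum ran from 12863 to 17096 CPM and from 10272 to 13900 CPM, with 2 of 2 lower. The erythroid sum ran from 3661 to 5759 and from 3237 to 5502 CPM with 0 of 4 called (1 at an unadjusted p under 0.05), and the epithelial and biliary sum from 931 to 2192 and from 864 to 1246 CPM with 2 of 5 lower (miR-200c-3p and miR-141-3p). The part of these cells in the ratios of miR-122-5p was not tested.

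Between mice of the same group, miR-122-5p varied most closely with miR-31-5p. The measure was Pearson's r over the 12 libraries of log2 CPM centred on group means, among 173 other miRNAs that averaged 100 CPM or more, given as a description since all values share the same libraries and totals. The highest values were those of miR-31-5p (0.852), miR-335-3p (0.804), miR-98-5p (0.735), miR-194-5p (0.726) and miR-148a-3p (0.707). The passenger arm miR-122-3p came 9th with 0.628, miR-122b-3p 7th with 0.658, miR-192-5p 11th with 0.601, and miR-122b-5p 94th with 0.052. The lowest values were those of miR-125b-5p (-0.801), the lymphoid miR-150-5p (-0.784) and the immune miR-155-5p (-0.777). Of these 8 extremes miR-335-3p alone was called between the groups (log2 fold change 0.44, edgeR adjusted p = 0.00755).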

How the data were processed

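The deposited table holds raw counts per mature miRNA in 12 libraries, made by the authors with no normalization. The submitters' processing notes name cutadapt, FastQC, BWA, DESeq2 and GRCm38. No source used here gives their settings, the counting tool, the miRNA annotation or the use of strand. The value 1 occurs in 0 cells of the table. No label mentions molecular identifiers, so counting errors cover counting only. Totals ran from 4961913 to 20211784 counts per library.

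Counts were compared with edgeR 4.0.16 (R 4.3.3; TMM scaling, filterByExpr, quasi-likelihood test, Benjamini-Hochberg adjustment over 607 miRNAs). Arm ratios were compared with limma 3.58.1 on log2 counts with a pseudocount of 1. Exact permutation tests were two-sided over all assignments, the smallest possible p being 0.00216, and correlations used 100000 permutations. The members, lists and reference miRNAs were chosen with earlier results of these data known. Named were the miR-122 rows, all list members, the most abundant miRNAs, the 5 highest and 3 lowest correlates of miR-122-5p and the 3 hairpins nearest in arm ratio. The name rule also matched 14 unrelated rows whose numbers begin with the same digits (miR-1224 and miR-12200 to miR-12206), all under 1 CPM on average except miR-12206-5p at 64.3 and 67.0 CPM. Of the listed names, 1 (miR-486a-5p) was not in the table. Sequences of the miR-122 arms are not printed. Alternatives were other scalings and filters, DESeq2 1.42.0, limma-voom, a replicate block and each library left out. Both groups use the numbers 1 to 6, and nothing in the labels pairs them.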

Additional observations from a re-analysis of the deposited data

How the results depend on the processing

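The miR-122-5p change was uncalled in all 21 alternatives (log2 fold change -0.0081 to 0.13, adjusted p 0.224 to 0.958), and with single libraries left out it lay between -0.0081 (without PZH replicate 4) and 0.10. For miR-122-3p, also uncalled in all 21, the values ran from -0.14 to 0.018, the last with at least 10 CPM in 6 libraries (adjusted p 0.271 to 0.951). With the replicate block the changes were 0.04 and -0.07. Same-numbered libraries correlated between -0.15 and 0.08 after centring. Differently numbered libraries were not compared, so this does not settle whether same-numbered ones share more than a number. The arm ratio of miR-122 was uncalled in 17 alternatives (0.08 to 0.17). Hairpins called for arm ratio numbered 19 at a mean of at least 100 counts per arm, 6 with the replicate block and 3 to 14 with single libraries left out. The hepatocyte count was 2 with no filter, where the median of all miRNAs was -0.16. Of the 7 reference ratios, 0 to 4 were called with single libraries left out, and that to miR-143-3p ran from -0.028 to 0.20. Centring on group means raised the correlation of the arms to 0.63, with an unadjusted permutation p under the threshold. The causes were not tested. At the lowest count, counting error was 0.144% for miR-122-5p and 1.73% for miR-122-3p, and the part of depth in the group differences was not tested.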
